A study of Mus musculus with 3 samples.

Results

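The genes of the cytosolic ribosomal proteins and their paralogs were 87 of the 24467 gene symbols in the count tables. They were found by symbol, as names of the form Rpl or Rps followed by a number (with the letter suffixes of the standard genes), Rplp0 to Rplp2, and the near copies that carry an added l, l1, al or rt. Kinases named Rps6k and pseudogenes with -ps in their symbol were left out. Of the 87 genes, 76 encode standard proteins of the ribosome (called core genes here): 43 of the large subunit, 30 of the small subunit and 3 of the stalk. The other 11 are paralogs. Rpl32l and Rpl37rt were placed with the paralogs after their symbols had been seen in the tables. A coding sequence was annotated for 84 of the 87 genes, all but Rpl32l, Rpl37rt and Rps4l.

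Polyadenylated RNA was sequenced from 3 samples of 5TGM1.BRE, a bortezomib-resistant mouse myeloma line that engrafts in C57Bl/KaLwRij mice and was obtained from their bone marrow. Bortezomib inhibits the proteasome. The cells were kept in 10 nM bortezomib and spent at least 72 h without it before RNA was taken from 10000000 cells per sample. All 3 samples belong to 1 group, so no comparison of conditions was possible, and the labels do not say whether they were separate cultures. Differences between them therefore describe libraries, whose spread may be technical. For replicate 1 the cell type label omits the culture in bortezomib, which is named for replicates 2 and 3.

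The cytosolic ribosome is built from ribosomal RNAs and about one copy of each ribosomal protein, so its subunits need all of these proteins in matched amounts. The messenger RNAs (mRNAs) of these proteins begin with a C followed by a run of pyrimidines, the 5′ terminal oligopyrimidine (TOP) tract, through which their translation follows the activity of the mTOR kinase. Some ribosomal protein genes have paralogs that replace or accompany the standard protein in particular tissues, such as Rpl3l in heart and skeletal muscle and Rpl10l and Rpl39l in testis. Plasma cells and myeloma cells secrete large amounts of immunoglobulin and so depend on protein synthesis.

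The 3 libraries held 62303493, 45705994 and 59402218 counts. All 7 plasma cell markers tested were at 1 CPM or more (counts scaled to a library total of 1000000), from 77.3 CPM for Slamf7 to 1218 CPM for Pou2af1. None of 4 T cell, 4 granulocyte, 3 erythroid and 3 stroma markers reached 1 CPM in all libraries, and Cd3e, S100a8, S100a9 and Lum had no count in any. Replicate 3 stood apart from the other 2 libraries over many genes, and its values are given beside each result that rests on them.

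Ribosomal protein genes and their paralogs took 8.96, 9.31 and 11.1% of all counts in replicates 1, 2 and 3 (9.78% ± 1.13, SD, n = 3). The share was similar in replicates 1 and 2 and highest in replicate 3. Nearly all of it came from core genes, with 8.87, 9.22 and 11.0% of counts. Large subunit genes took 4.57, 4.72 and 5.56%, small subunit genes 3.77, 3.94 and 4.74%, and the 3 stalk genes 0.532, 0.557 and 0.656%. The 11 paralogs together took 0.0901, 0.0940 and 0.110%. Every one of the 76 core genes was detected at 1 CPM or more in all libraries, and 83 of the 87 genes were, against 10016 of the 24467 symbols. Of the 100 genes with the highest mean CPM, 43 were core genes, and 40 core genes exceeded 1000 CPM in every library.

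In CPM, the core genes ran from Rps28 to Rpl4 in each library. The lowest, median and highest core gene had 188, 1026 and 3893 CPM in replicate 1, 186, 1067 and 3897 CPM in replicate 2, and 240, 1240 and 4287 CPM in replicate 3. Rpl4, whose protein lines part of the exit tunnel of the large subunit, ranked 5 among all genes by mean CPM. Each core gene was highest in replicate 3, and 68 of the 76 were lowest in replicate 1. The coefficient of variation over the 3 libraries ran from 3.20% for Rpl10 to 18.4% for Rps21, with a median of 12.1%.

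**Figure D1:**
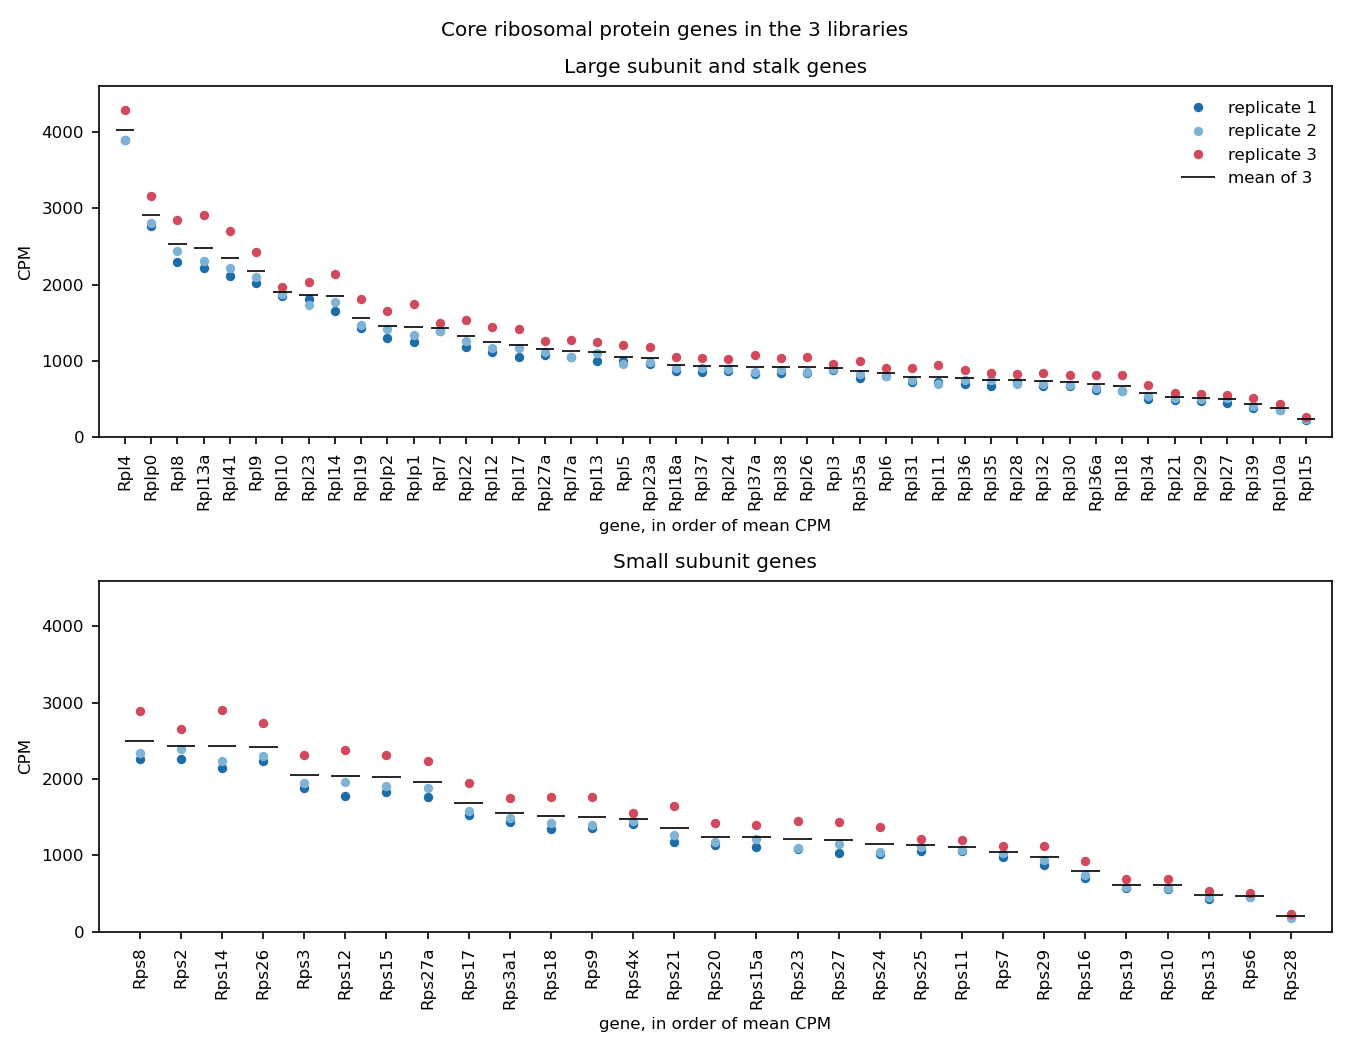
CPM of 75 of the 76 core genes in each of the 3 libraries (points, linear axis) with the mean of the 3 (bar), for large subunit and stalk genes above and small subunit genes below, in order of mean CPM. Replicate 3 gives the highest point for all 75 genes drawn, and the means run from 205 CPM (Rps28) to 4026 CPM (Rpl4).

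Longer transcripts give more fragments, so levels were compared between genes as CPM per kilobase (kb) of the gene's union of annotated exons. On this scale the core genes had a median of 619 CPM per kb and spanned 32.4-fold. Their spread, as the SD of log2 CPM per kb, was 1.18 over the 76 genes, against 2.77 over the 11238 tested genes with a length. The values overlapped between libraries for 74 of the 75 pairs of neighbours in this order, and 44 of the pairs were not in the same order in every library. The exception was Rplp1 and Rpl36, whose library values did not overlap. Overlap between libraries also holds the joint rise of the core genes in replicate 3. By the order within each library, most neighbours had no stable order.

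The highest core gene was Rps15, a protein of the small subunit's head (chr10:80292453-80294114 in GRCm38, plus strand), at 2916, 3034 and 3679 CPM per kb (3210 ± 411, SD, n = 3). Second was Rplp1, at 2510, 2697 and 3491 CPM per kb. Rplp1 and Rplp2 form the dimers of the flexible stalk that recruits translation factors, and Rplp0 anchors them to the large subunit. Rplp0 had 1670, 1693 and 1907 CPM per kb and Rplp2 had 626, 685 and 799 CPM per kb. The 3 stalk genes thus differed in level per kb of union exon, with no overlap of library values between Rplp2 and the other 2. Per kb of coding sequence their means lay closer, at 3055 ± 228 for Rplp0, 4193 ± 753 for Rplp1 and 4187 ± 525 for Rplp2 (SD, n = 3).

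The other large subunit genes among the 8 highest were Rpl36, Rpl4, Rpl41, Rpl8 and Rpl38. Rpl36 had 1826, 1950 and 2307 CPM per kb, and Rpl4 (chr9:64173375-64178666, plus strand) had 1940, 1942 and 2136. Rpl41, which encodes the shortest protein of the ribosome, had 1811, 1893 and 2313 CPM per kb. These 3 genes changed places between libraries, so their order among themselves is not resolved. Rpl8, a protein near the peptidyl transferase centre, had 1691, 1791 and 2096 CPM per kb. Rpl38, known for its role in the translation of Hox mRNAs in the embryo, had 1544, 1625 and 1917. The next gene outside these 8, Rps21, had a mean of 1683 CPM per kb against 1695 for Rpl38.

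The lowest core gene was Rpl15 (chr14:18267823-18271391, minus strand), a large subunit protein, at 91.5, 95.3 and 110 CPM per kb (98.95 ± 9.81, SD, n = 3). Rps28, a small protein at the mRNA exit site (chr17:33819027-33824562, minus strand), had 109, 108 and 140 CPM per kb. Rps28 was above Rpl15 in each of the 3 libraries. Rps19, the gene most often mutated in Diamond-Blackfan anaemia, followed at 122, 126 and 148 CPM per kb. Rpl21 had 145, 151 and 172, Rpl10a 149, 146 and 181, and Rpl18 151, 151 and 201 CPM per kb, all 3 being large subunit proteins. The next gene above these 6 was Rps13, with a mean of 177 CPM per kb.

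Rpl5 and Rpl11, which with the smallest ribosomal RNA form the particle that binds Mdm2, lay below the median of the core genes. Rpl5 had 254, 246 and 308 CPM per kb, and Rpl11 had 268, 259 and 350. Rpl11 was above Rpl5 in 3 of 3 libraries on this scale, with means of 292 ± 50.2 and 269 ± 33.6 CPM per kb (SD, n = 3). Rps6, the substrate of the S6 kinases, had 285, 291 and 318 CPM per kb. Rps14, whose loss underlies the anaemia of the myelodysplastic syndrome with deletion of the long arm of a chromosome, had 893, 936 and 1213 CPM per kb. Rps27a, made as a fusion with ubiquitin, had 896, 956 and 1132 CPM per kb. Rpl10, which joins the large subunit late in assembly, had 903, 914 and 959 CPM per kb, and Rps3, at the mRNA entry site, had 421, 435 and 516.

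The order of the genes depended on which length was used. The Spearman correlation over the 76 genes with the order on union exons, as a description, was 0.95 for the longest transcript, 0.86 for the principal transcript, 0.68 for the coding sequence and 0.70 for CPM with no length. Of the 8 highest genes, 5, 2, 2 and 3 stayed among the 8 highest under these choices, and of the 6 lowest, 5, 3, 3 and 3 stayed among the 6 lowest. Rps15 was highest on union exons, longest transcript and principal transcript, while Rpl41 was highest per kb of coding sequence, at 30033 CPM per kb over 78 coding bases. Rpl15 was lowest under all 4 lengths, and second lowest in CPM. Per kb of coding sequence, Rpl15 had 398 ± 39.5, Rpl10a 593 ± 74.2 and Rps6 630 ± 36.7 (SD, n = 3), against a median of 2538 over core genes. Rps19 and Rpl18, among the 6 lowest on union exons, ranked 62 and 66 of 76 per kb of coding sequence, and their union exons cover 4685 and 4043 bases against a median of 1775.5 bases over core genes.

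**Figure D2:**
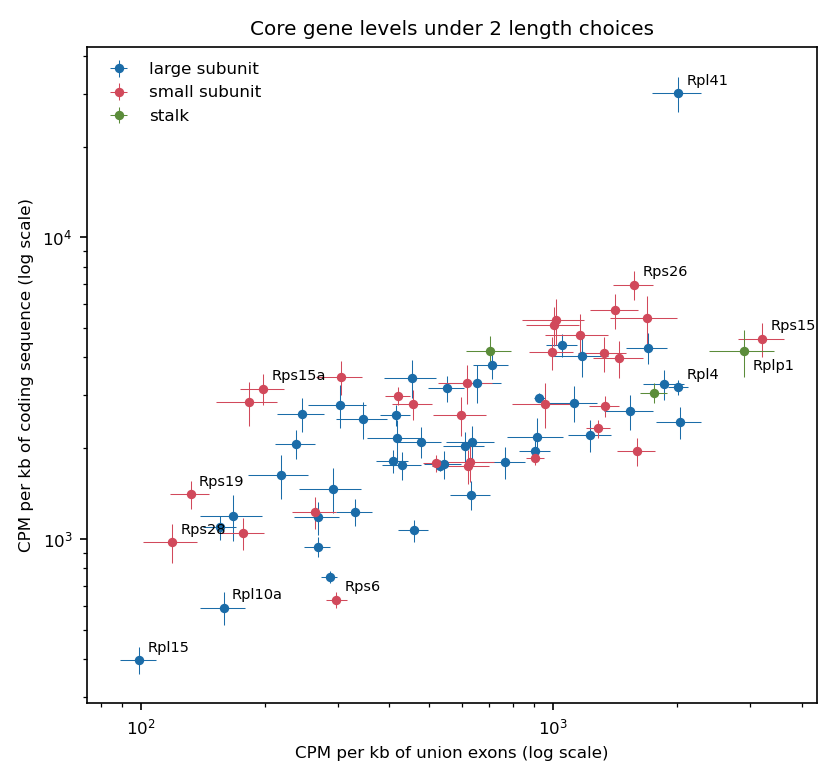
Level of each core gene (points, mean of 3 libraries ± SD) as CPM per kb of union exons (x axis, log scale) against CPM per kb of coding sequence (y axis, log scale), coloured by subunit. Rpl15 is at the lower left, at 98.95 and 398, while Rpl41 is at 2006 and 30033.

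Large subunit genes had lower levels than small subunit genes as a group. The median over large subunit genes minus that over small subunit genes, in log2 CPM per kb of union exons, was -0.49, -0.46 and -0.58 in the 3 libraries (-0.51 ± 0.063, SD, n = 3). The difference had the same sign in every library and under every length, with means of -0.59 for the longest transcript, -0.38 for the principal transcript, -0.43 for the coding sequence and -0.43 in CPM. Genes are not replicates, and no test was made of this difference.

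Ribosomal protein genes have many processed pseudogenes, so reads from a core gene can match elsewhere in the genome. For each core gene, the share of 50-base words of the principal transcript that also occur in transcripts of another annotated gene (including pseudogenes) was counted. The share reached 98.6% for Rps27, with a median of 52.5%, and 41 of the 76 core genes had more than 50% of their words repeated. Among the low genes it was 30.2% for Rpl15, 50.7% for Rps28, 88.1% for Rpl10a and 84.6% for Rps6. Over the 76 genes its Spearman correlation with level was 0.04 on union exons and -0.20 per kb of coding sequence. The sources used here do not say how reads with several matches were counted, and the part of multiple matching in these levels was not tested. Of 7 symbols with -ps in the tables, Rpl14-ps1 had a mean of 66.6 CPM and the others at most 3.52 CPM.

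Paralogs were far lower than their parents for most pairs, with Rps27l and Rpl36al the closest to them. Levels here are CPM per kb of union exons. Rps27l (chr9:66946086-66949516, plus strand), a target of p53, had 451, 486 and 581 CPM per kb, and its parent Rps27 (chr3:90212522-90213651, minus strand) had 990, 1103 and 1381. Rps27 was 2.28-fold higher, a log2 ratio of paralog to parent of -1.19 ± 0.057 (SD, n = 3). Rpl36al (chr12:69182731-69184083, minus strand) had 164, 165 and 215 CPM per kb, and Rpl36a (chrX:134585654-134588062, plus strand) had 373, 389 and 493. Rpl36a was 2.31-fold higher, at a log2 ratio of -1.21 ± 0.027 (SD, n = 3). The parent was higher in every library for both pairs. Over the other length choices, Rps27 was 2.49- to 4.21-fold and Rpl36a 2.82- to 4.43-fold higher.

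The coding sequences of these pairs differ throughout, while 22.4% of the 50-base words of Rps27l and 63.3% of those of Rpl36al recur in some other annotated gene. For the parent Rps27 the share was 98.6%, and the part of multiple matching in these ratios was not tested. Over the whole coding sequence, Rps27l and Rps27 were 76.1% identical with 61 differing bases of 255, and Rpl36al and Rpl36a were 87.9% identical with 39 of 321. The first 120 coding bases of each are shown to let these differences be seen, with the bases that differ within a pair in capitals (28 and 18 positions). They come from the GENCODE M21 models on GRCm38.
Rps27l: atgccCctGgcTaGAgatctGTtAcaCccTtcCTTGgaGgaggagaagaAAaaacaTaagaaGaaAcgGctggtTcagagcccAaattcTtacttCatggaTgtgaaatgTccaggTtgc
Rps27: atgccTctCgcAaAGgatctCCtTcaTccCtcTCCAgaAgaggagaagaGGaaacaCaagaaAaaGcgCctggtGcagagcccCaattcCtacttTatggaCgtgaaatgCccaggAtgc
Rpl36al: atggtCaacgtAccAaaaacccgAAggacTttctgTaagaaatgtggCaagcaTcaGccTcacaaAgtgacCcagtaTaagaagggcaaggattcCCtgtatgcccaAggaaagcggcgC
Rpl36a: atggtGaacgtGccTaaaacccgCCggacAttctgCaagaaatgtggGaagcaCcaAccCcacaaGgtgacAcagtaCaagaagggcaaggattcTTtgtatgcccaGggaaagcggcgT

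The other 5 detected paralogs lay further below their parents. Rpl37rt had 70.4, 76.5 and 86.3 CPM per kb against 507, 537 and 614 for Rpl37, which was 7.11-fold higher. Rpl7l1, a nucleolar protein of large subunit assembly, had 58.9, 59.6 and 58.4 CPM per kb against 516, 519 and 557 for Rpl7, 9.0-fold higher. Rpl22l1, which can stand in for Rpl22 and is repressed by it, had 20.6, 21.04 and 25.6 CPM per kb against 404, 431 and 529 for Rpl22. Rpl22 was 20.3-fold higher, at a log2 ratio of -4.34 ± 0.040 (SD, n = 3). This ratio was sensitive to the length, since Rpl22 was 7.98-fold higher with principal transcripts, 28.3-fold with coding sequences and 29.7-fold in CPM. Over the same choices Rpl37 was up to 15.9-fold (with no coding length for Rpl37rt) and Rpl7 6.31- to 15.5-fold higher. Rpl37rt and Rpl32l could not be aligned with their parents over a coding sequence. How surely their counts are assigned was not tested.

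Rpl32l had 20.8, 22.1 and 23.4 CPM per kb against 698, 724 and 868 for Rpl32, 34.4-fold higher (83.0-fold in CPM). Rps27rt had 7.90, 10.4 and 13.6 CPM per kb, and Rps27 was 110-fold higher on union exons and 334-fold higher with principal transcripts. Its coding sequence is identical to that of Rps27 over all 255 bases (100%), and 91.1% of its 50-base words recur in other genes, so counts of this pair cannot be assigned with certainty. In all 7 detected pairs the parent was higher in 3 of 3 libraries. The two-sided exact sign-flip permutation test over libraries gave p = 0.25 for each ratio, which is the lowest p that 3 libraries allow. Adjusted over the 7 ratios by Benjamini-Hochberg it was also 0.25.

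**Figure D3:**
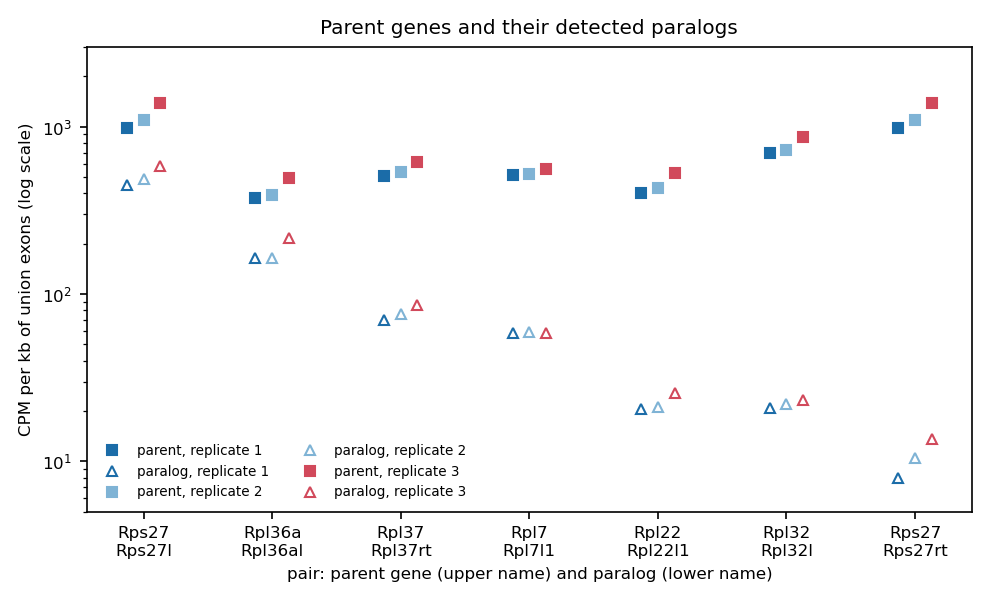
CPM per kb of union exons (log axis) in each library for the 7 detected paralogs (open triangles) and their parents (filled squares), by pair. Parents lie above their paralogs in each library, from 2.28-fold for Rps27l to 110-fold for Rps27rt.

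The paralogs known from muscle and testis, and apart from these Rps4l, were at or near 0. Rpl3l had 2, 2 and 4 counts in the 3 libraries, or 0.00524% of the counts of Rpl3 (exact 95% binomial interval 0.00226 to 0.0103%). Rpl10l had 1, 3 and 2 counts, or 0.00189% of those of Rpl10 (0.000692 to 0.00410%). Rpl39l had 0, 1 and 0 counts, or 0.00137% of those of Rpl39 (3.46e-05 to 0.00762%). Rps4l had no count in any library, and with 3 counts over all libraries as the limit that a count of 0 allows, it was at least 82268-fold below Rps4x in counts. Such intervals and limits cover counting error only. Rpl39l and Rpl39 differ at 23 of 156 coding bases, and none of the 50-base words of Rpl39l or Rpl3l occurs in another gene. For Rpl10l, 7.6% of these words do. The first 120 coding bases of the Rpl39 pair are shown because a single count separates this paralog from 0, with the 14 differing bases in capitals.
Rpl39l: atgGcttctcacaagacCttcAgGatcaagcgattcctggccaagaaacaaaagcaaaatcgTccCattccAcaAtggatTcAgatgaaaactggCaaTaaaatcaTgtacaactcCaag
Rpl39: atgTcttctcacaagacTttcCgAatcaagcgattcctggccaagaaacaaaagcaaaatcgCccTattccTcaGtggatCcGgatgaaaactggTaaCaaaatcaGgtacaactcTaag

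Replicate 3 had more counts of nearly every ribosomal protein gene than replicates 1 and 2. The comparison of 1 library with the other 2 used the quasi-likelihood test of edgeR, with p-values adjusted by Benjamini-Hochberg over 11308 genes. It leaves 1 degree of freedom. Its standard error (SE) therefore rests on the spread between the other 2 libraries as estimated jointly over genes, and not on each gene's own spread alone. Of the 83 genes tested (all 76 core genes and 7 paralogs), 80 were higher in replicate 3 at an adjusted p under 0.05 and 0 were lower. Over all genes tested, 24.8% were higher and 26.8% lower. The median log2 difference of the core genes was 0.32, against 0.005 over all genes tested. By role, 42 of 43 large subunit, 30 of 30 small subunit and 3 of 3 stalk genes were higher, with medians of 0.31, 0.34 and 0.32.

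Among core genes the largest rises were in Rps21, Rplp1 and Rpl18. Rps21, a small subunit protein, had 1174, 1268 and 1648 CPM, a log2 difference of 0.46 (SE 0.047, edgeR adjusted p = 3.41e-21). Rplp1 had 1252, 1346 and 1742 CPM, a log2 difference of 0.45. Rpl18 had 610, 610 and 811 CPM, a log2 difference of 0.44. In these genes replicate 3 lay above both other libraries, which were closer to each other. The smallest differences were in Rpl10, Rpl7 and Rpl3, at 0.11, 0.14 and 0.14. Rpl10 had 1853, 1877 and 1968 CPM and was the core gene that did not pass the test (SE 0.049, edgeR adjusted p = 0.0518). That call changed with the setting: Rpl10 passed with DESeq2 (adjusted p = 0.0375), and all 76 core genes passed in edgeR with no filter on low counts or with a trend on GC content removed. DESeq2 called 74 of 76 core genes higher, all but Rpl27 and Rpl35, where it called 15.8% of the genes it gave an adjusted p.

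Over the 7 paralogs tested, the median log2 difference in replicate 3 was 0.33. With the trend on union, principal or coding length removed, as described below, this median was 0.07, 0.03 and 0.16. Rps27rt had the largest log2 difference, at 0.63 (SE 0.13), from 2.95, 3.89 and 5.10 CPM. Rpl36al, Rps27l, Rpl22l1 and Rpl37rt followed at 0.42, 0.34, 0.33 and 0.27. Rpl7l1, with a log2 difference of 0.01, and Rpl32l, with 0.16, did not pass the test. Rpl7l1 had 206, 208 and 204 CPM, so replicate 3 was its lowest library and the 3 values lay close together.

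Replicates 1 and 2 were each lower in core genes than the mean of the other 2 libraries, with core medians of -0.21 and -0.12 on the log2 scale. In both comparisons replicate 3 is one of the other 2 libraries and sets their spread, so the median SE of core genes was 0.18 and 0.22, against 0.046 for replicate 3. Calls could hardly be made at that spread, and their absence says nothing of whether these libraries differ. With edgeR, 0 ribosomal protein genes or paralogs passed in replicate 1, where 0.0796% of all genes did, and 0 passed in replicate 2, where 0.0531% did. At an unadjusted p under 0.05 there was 1 such gene in replicate 1 and 0 in replicate 2.

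The replicate 3 difference moved with transcript length over all genes. The median log2 difference was 0.34 for tested genes with a principal transcript of 362 to 512 bases and fell to -0.29 for those of 8192 to 11585 bases. Core genes have short transcripts, with a median principal length of 843 bases (345 to 5179) against 2825 over all genes tested. Within the 76 core genes, the Spearman correlation of the log2 difference was -0.36 with principal length and -0.09 with union length. The 77 mitochondrial ribosomal protein genes, which belong to another ribosome, showed a like difference, with 70 of 77 higher and a median of 0.25. After a smooth trend on union, principal or coding length was removed, as described below, the mitochondrial median was 0.098, 0.063 and 0.089. The core median was then 0.14, 0.055 and 0.12, so what remained was not particular to the cytosolic genes. Whether RNA quality or library preparation differed in replicate 3 was not tested.

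**Figure D4:**
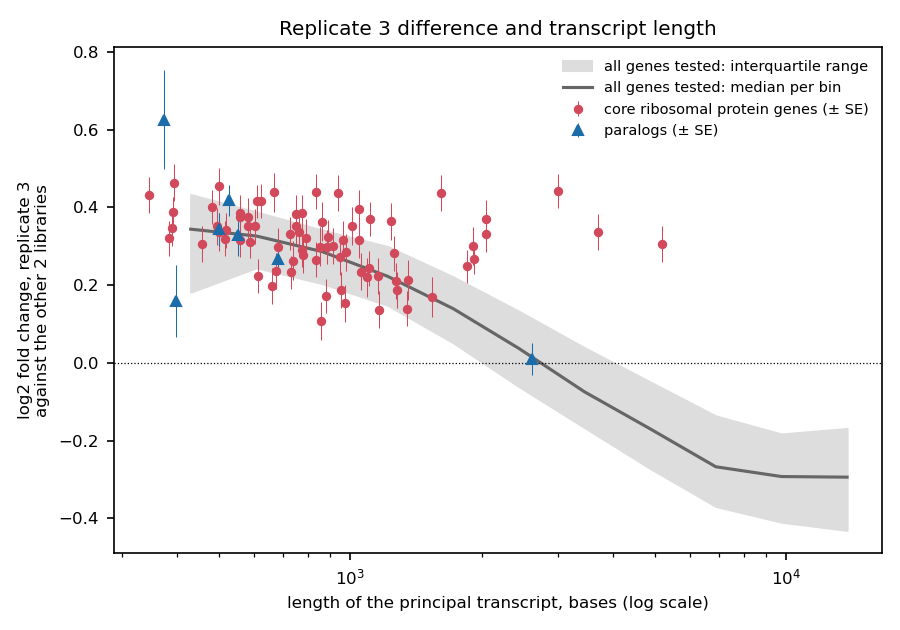
Log2 difference of replicate 3 from the other 2 libraries (y axis) against principal transcript length in bases (x axis, log scale), for core genes (red circles ± SE) and tested paralogs (blue triangles ± SE). The grey line and band, the median and interquartile range of all tested genes per length bin, fall from 0.34 at 362 to 512 bases to -0.29 above 8192 bases.

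With a smooth trend on length removed from each library, fewer core genes stood apart in replicate 3, and how many depended on the length. A union or principal length was known for 99.4% of the genes tested, and a coding length for 94.0%. Genes without the length in use were left uncorrected and stay in all shares given for these corrections. For coding length these include Rpl32l and Rpl37rt. With the trend on union exon length removed, 48 of the 83 genes were higher (46 of 76 core genes, median 0.14), where 16.0% of all genes were. With principal transcript length, 22 were higher and 1 lower (21 and 1 of 76 core genes, median 0.06), where 12.2% of all genes were higher. With coding length, 50 were higher and 2 lower (47 and 1 of 76 core genes, median 0.12), where 16.8% of all genes were higher. The genes that turned lower were Rpl10 with principal length, at -0.15 (edgeR adjusted p = 0.0076), and Rpl41 and Rpl7l1 with coding length, at -0.10 and -0.11 (edgeR adjusted p = 0.0388 and 0.0155).

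A set of 18 of the 76 core genes was higher in replicate 3 under all 3 length corrections, which were partly chosen after the data were seen, where 4.82% of all genes tested were. It holds both partners of the Mdm2-binding particle, Rpl5 and Rpl11, the stalk gene Rplp1, the large subunit genes Rpl12, Rpl13a, Rpl14, Rpl15, Rpl17, Rpl18, Rpl22 and Rpl34, and the small subunit genes Rps3, Rps14, Rps16, Rps20, Rps21, Rps23 and Rps24. The set is the same with principal and coding length alone, so the union correction took no gene out of it. How much of it comes from long principal transcripts was not tested. Rpl18 had 0.47 with principal length and 0.27 with coding length removed. Rps15a had 0.49 with principal length but 0.08 with coding length (edgeR adjusted p = 0.0932), and its principal transcript of 5179 bases carries 393 coding bases. Of the 10 core genes whose principal transcript exceeds 1500 bases, 9 were higher after removal of the principal length trend, against 12 of the other 66.

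**Figure D5:**
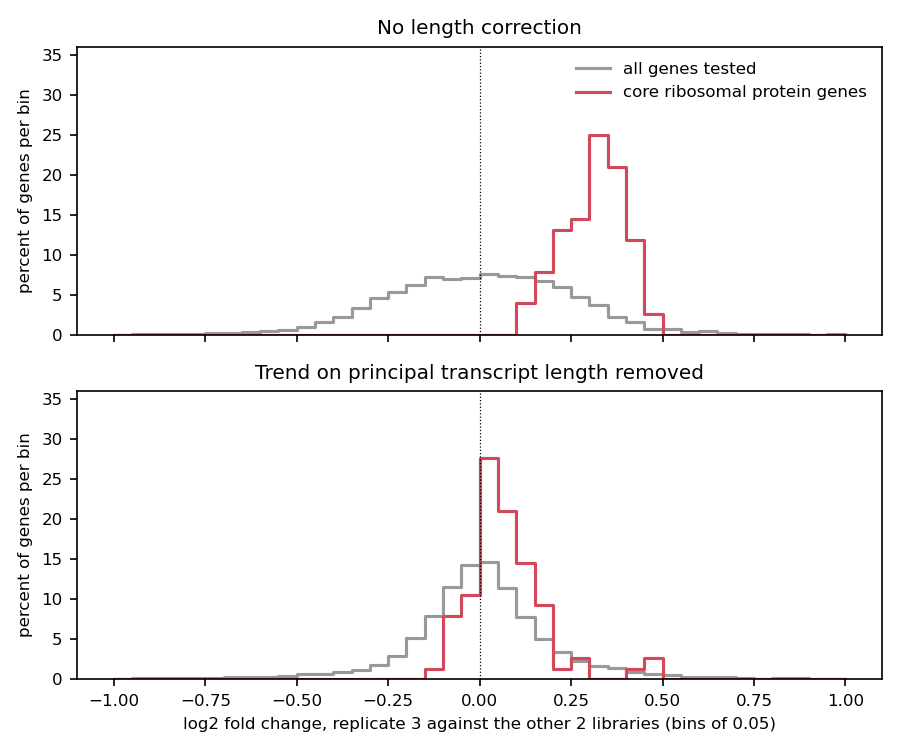
Distribution of the log2 difference of replicate 3 from the other 2 libraries for core genes (red) and all genes tested (grey), as percent of genes per bin of 0.05, with no length correction (upper) and with the principal transcript length trend removed (lower). The core median moves from 0.32 to 0.06.

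Genes that act with the ribosomal proteins were all detected. Of the 4 ribosomal proteins with other names, Rack1 was highest at 2467 ± 216 CPM and Fau lowest at 593 ± 94.3 (SD, n = 3), and all 4 were higher in replicate 3 (3, 2 and 3 with the trend on union, principal or coding length removed). Over 6 partners of single ribosomal proteins the median log2 difference in replicate 3 was 0.08, and -0.04, -0.001 and 0.06 under the same corrections. Bccip, the chaperone of Rpl23, was highest at 170 ± 7.39 CPM, and Grwd1, the chaperone of Rpl3, lowest at 86.3 ± 2.87 (SD, n = 3). Of 13 other TOP mRNAs, 7 were higher and 2 lower in replicate 3 with no length correction. Their median log2 difference went from 0.10 to 0.02, -0.06 and 0.06 with the trend on union, principal or coding length removed. The elongation factor Eef1a1 had 8425 ± 458 CPM, the highest of the genes analysed here, and Eif3h had 203 ± 8.09 (SD, n = 3).

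Of 12 regulators of TOP mRNA translation, 3 were higher and 5 lower in replicate 3 with no length correction. Their median log2 difference went from -0.04 to 0.07, 0.08 and -0.002 with the trend on union, principal or coding length removed. Larp1, which binds the cap and TOP tract when mTOR is inactive, was the highest at 501 ± 41.0 CPM, and Rps6kb2, an S6 kinase, the lowest at 23.8 ± 1.53 (SD, n = 3). Of 9 genes of ribosome collision and quality control, 1 was higher and 6 were lower with no length correction. With the trends on union, principal and coding length removed, their median log2 difference went from -0.17 to -0.005, -0.06 and -0.03. Abce1, which splits ribosomes, was highest at 431 ± 46.5 CPM, and the ribotoxic stress kinase Zak lowest at 37.2 ± 2.98 (SD, n = 3). The 24.8% higher and 26.8% lower over all genes are the background of the uncorrected counts.

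The start regions of the core genes were read for the TOP tract in RefSeq windows (GRCm38.p6) from 250 bases before to 50 bases after the annotated start. A window was found for 56 of the 76 core genes and for 27025 genes in all. In 13 of the 56 (23.2%), the annotated start was a C followed by at least 4 C or T, against 3.01% of all windows. A run of at least 8 C or T within 25 bases of the start was found in 53.6%, against 22.3%. Starts annotated a few bases away from the true one would not be counted, so absence here says only that these letters are not at the annotated start.

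A few of the 13 are shown because they place the tract in genes at both ends of the level order, among them Rpl15, the lowest, and Rpl38, among the 8 highest. Each line holds 10 bases before and 20 from the annotated start, 5′ to 3′ on the gene's strand, with the pyrimidine run from the start in capitals. They were chosen after their levels had been seen.
Rpl15 (chr14:18270967-18270996, minus strand): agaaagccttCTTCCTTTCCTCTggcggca
Rps6 (chr4:86857348-86857377, minus strand): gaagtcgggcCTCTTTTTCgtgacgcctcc
Rplp2 (chr7:141447641-141447670, plus strand): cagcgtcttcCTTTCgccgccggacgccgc
Rps27 (chr3:90213629-90213658, minus strand): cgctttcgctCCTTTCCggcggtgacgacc
Rps21 (chr2:180257369-180257398, plus strand): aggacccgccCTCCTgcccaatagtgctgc
Rpl38 (chr11:114668570-114668599, plus strand): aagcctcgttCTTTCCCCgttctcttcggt

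The run is 13 bases long in Rpl15, the gene with the lowest level, and 5 in Rplp2 and Rps21. It is 8 bases long both in Rpl38, at 1695 CPM per kb of union exons, and in Rps15a (not shown), at 198. Whether run length and level go together was not tested. In the whole windows of 300 bases, CTCTTT occurred on the sense strand in 41.1% of core genes against 13.7% of all genes, and on the antisense strand in 12.5% against 14.0%. CTTTCC, which shares letters with the former where they overlap, occurred in 39.3% against 16.0% on the sense strand and in 17.9% against 16.1% on the antisense strand. CCGGAAG, the core of sites for ETS factors such as Gabpa, occurred in 26.8% on the sense and 16.1% on the antisense strand, against 5.40% on each over all genes. GCGCATGC, the core of the Nrf1 site, occurred in 5.36 and 3.57%, against 2.11 and 2.07%. These motifs were chosen after promoter windows of core genes had been looked at, and a match is a description of letters and not of binding.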

How the data were processed

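The deposited tables hold the authors' raw counts per gene symbol, 1 table per library. Per the submitters' processing notes, bcl2fastq, cutadapt 4.2 and STAR were used with mm10. The sources used here name neither the counting program nor its annotation, strand setting or treatment of multiply matching reads. Lengths, positions and coding sequences came from GENCODE M21 (GRCm38). Each gene with a model was given the union of its exons as the main length. Counts were scaled to CPM, and edgeR 4.0.16 (R 4.3.3, TMM, filterByExpr) was used for tests. Its check on simulated data drew genes independently and with no length trend, so it does not cover the trend seen in replicate 3. Detection means 1 CPM or more in all libraries. Paralog ratios used a pseudocount of 0.5 counts.

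Genes given by name are the 8 highest and 6 lowest core genes, the paralogs and parents, selected genes of known role, the 3 largest rises in a library, core genes that did not pass where most did, and the ends of the other lists. Rps15a, Rpl41 and Rpl7l1 under length corrections, the genes higher under all 3 corrections and those of the repeat and start-site descriptions were chosen after their values were seen. The members and lists were chosen with earlier results of these data known. The gene lists come with no test of their own. Some genes are not reported here by name.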

Additional observations from a re-analysis of the deposited data

How the results depend on the processing

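DESeq2 1.42.0, RLE scaling, no scaling, no filter, a GC trend and other pseudocounts and CPM limits kept every core gene above 0 in replicate 3, with 74 to 76 of 76 called, and the counts of members called within 1.5 times. Over all genes DESeq2 called 1374 higher and 1810 lower, against 2803 and 3031 with edgeR, and Rpl7l1 went from 0.01 to -0.02 with no scaling. TOP regulators called higher went from 3 to 1 with DESeq2 or no scaling. Of 163 values under alternatives, 139 were counted as unchanged, 3 as weaker, 2 as stronger and 1 as reversed in sign. Another 18 kept their sign but moved by more than the error of the main value. Many of the 139 could hardly change. Paralog ratios that kept their sign were counted as unchanged whatever their size, and 3 libraries cannot bring their p under 0.05. Members called in replicates 1 and 2 numbered 0 under every setting. The trends on principal and coding length, both of those lengths, the core medians and Rpl32l as a core gene were chosen after seeing the data. Members higher in replicate 3 numbered 80, and 48, 22 and 50 with trends on union, principal and coding length removed; members lower were 0, and 1 and 2 with the last 2. The core median in replicate 3 went from 0.32 to 0.14, 0.055 and 0.12. That in replicate 1 went from -0.21 to -0.021 with principal length, and to -0.32 without replicate 2 and -0.056 without replicate 3. That in replicate 2 went from -0.12 to -0.26 without replicate 1 and to 0.056 without replicate 3, turning its sign. The cause was not tested. The median core level went from 619 CPM per kb to 903 (longest transcript), 1417 (principal), 2538 (coding) and 1121 CPM (no length). The SD of log2 levels went from 1.18 to 1.17, 1.06, 0.92 and 0.82, and to 1.30 with Rpl32l as core. The large minus small subunit difference went from -0.51 to -0.59, -0.38, -0.43 and -0.43. Coding length from RefSeq proteins was not run, and GENCODE coding length was used in its place. No paired analysis was possible because there is 1 group. Depth limits the paralogs near 0 counts, and its effect on the other genes was not tested.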
